A study of Mus musculus with 40 samples.

Results

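The genes described here are 9 transcripts commonly used to recognise neural stem cells: Nes, Vim, Fabp7, Prom1, Msi1, Msi2, Nr2e1, Hmga2 and Cd44. They were chosen by name, and all probes on the array whose platform gene symbol is one of the 9 were taken, 29 probes of the 45260 usable ones, on all 40 arrays. In all, 19057 genes had a probe. The cells were mouse neural stem cells from the E13.5 telencephalon, of the strain 129/Svj;C57Bl/6 hybrid. They carried floxed Id1 and Id2 alleles (Id1L/L and Id2L/L), lacked Id3 (Id3-/-) and held a Cre-ER allele (Rosa-Cre-ER), a genotype named Id-cTKO-Rosa-Cre-ER. Treated cells received 250 nM 4-hydroxytamoxifen (4-OHT), which frees the Cre recombinase to delete Id1 and Id2, and control cells received its ethanol vehicle, for 6, 12, 18, 24, 48, 96 or 144 h. Cells of both kinds lacked Id3, carried the Cre-ER allele at a locus active in all cell types, and grew on laminin with 20 ng/ml each of EGF and FGF-2. Since every culture carried the Cre allele, the deletion and any effect of 4-OHT itself cannot be told apart. There were 14 groups. Those up to 96 h held 3 arrays each, lettered A to C, and both groups of 144 h held 2, lettered A and C.

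Neural stem cells are not marked by a single gene. Nes and Vim encode intermediate filament proteins that polymerise together in the cytoskeleton of radial glia and neural progenitors. Fabp7 encodes the brain fatty acid binding protein of radial glia, Prom1 the membrane protein CD133, and Cd44 the receptor for the matrix sugar hyaluronan. Msi1 and Msi2 encode Musashi RNA-binding proteins, Nr2e1 the orphan nuclear receptor Tlx, which keeps neural stem cells self-renewing, and Hmga2 a chromatin protein of young stem cells that is kept low later in life by let-7 microRNAs. Id proteins bind basic helix-loop-helix proteins, keep them from DNA, and are themselves used as marks of neural stem cells.

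The log2 levels given below are background-corrected and quantile-normalized values, and levels of different probes are not comparable with each other. A probe was detected on an array at a detection p under 0.01, and 21740 probes detected on at least 3 arrays were tested. Between 15884 and 19186 probes were detected on 39 arrays, but 12947 on vehicle array C of 6 h, which was dim. The floxed gene Id2 (probe ILMN_1228557) had levels of 4.93 to 5.11 in 4-OHT cells and 9.47 to 10.30 in vehicle cells at 96 h, a difference of -4.94 (limma, adjusted p = 3.74e-16), and Id1 (ILMN_2672190) was detected on 0 of the 3 4-OHT arrays at that time. At 12 h these 2 probes differed by -1.21 (Id2) and -0.09 (Id1), and neither was called at 6 or 12 h. At 24 h Id1 was still detected on 3 4-OHT arrays and not called (-0.94, limma, adjusted p = 0.161). Whether replicates were separate cultures or animals is not stated, and p-values then measure only the spread between these samples, part of which may be technical. Precision is limited by how few arrays each group held.

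Of the 29 probes, 14 passed the filter, and these covered 7 of the 9 genes. On all 40 arrays, 9 probes were detected: both Nes probes, 1 of 2 Vim probes, the single Fabp7 probe, 3 of 6 Msi2 probes and 2 of 9 Cd44 probes. Nr2e1 (1 probe) was detected on 39 arrays, the exception being the dim one, and Prom1 on 15 arrays by 1 of its 3 probes. On 0 arrays were the 3 Hmga2 probes, the 2 Msi1 probes, 2 Prom1 probes and 4 Cd44 probes detected. Since none of their probes reached that detection threshold, neither Hmga2 nor Msi1 was tested. The lowest detection p reached was 0.0235 for Hmga2 (ILMN_2743802) and 0.0128 for Msi1 (ILMN_1251865). The label of neural stem cells was thus carried on these arrays by Nes, Vim, Fabp7, Msi2, Nr2e1 and Cd44, and Prom1 lay close to background throughout. As for the cells a culture of this kind could also hold, 0 of 6 microglial, 1 of 5 endothelial and 1 of 7 mesenchymal or pericyte marker genes had a probe that passed the filter.

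**Figure D1:**
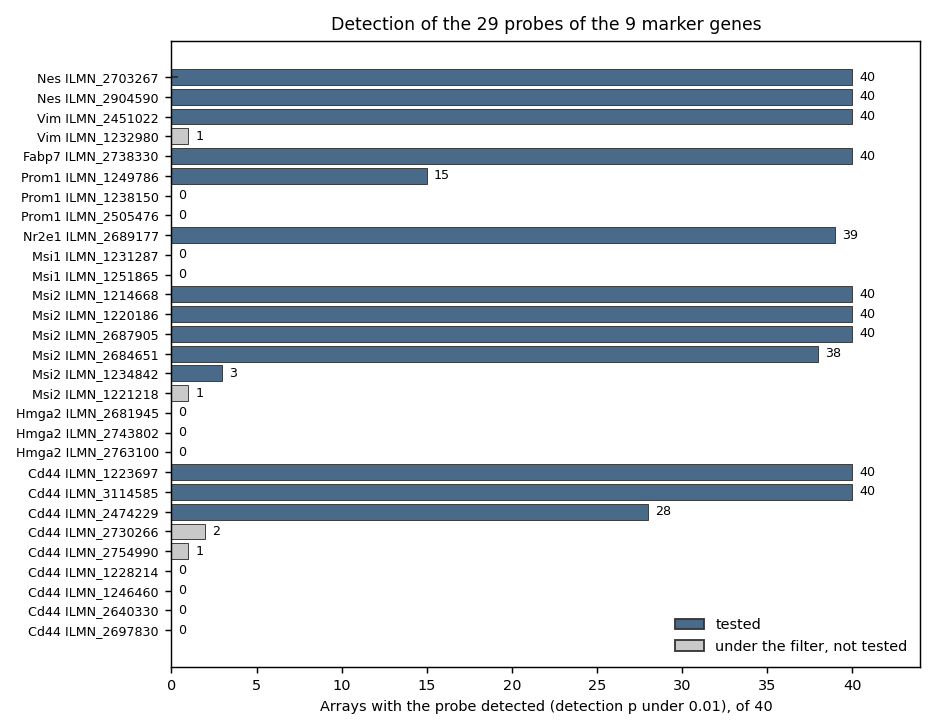
Number of the 40 arrays on which each of the 29 probes of the 9 marker genes was detected (detection p under 0.01, horizontal axis), with filled blue bars for the 14 tested probes and grey bars for the others. 9 probes reach all 40 arrays, while all probes of Hmga2 and Msi1 are at 0.

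The results below turn on Vim, Nr2e1 and Nes. Vim lies at chr2:13574311-13582826, Nr2e1 at chr10:42561963-42583590 and Nes at chr3:87971093-87980451 (GRCm38.p6, RefSeq). Their upstream sequences are shown because these are the marker genes with a call in the fit without pairing described below, and because E-boxes (CANNTG) are the short palindromes that basic helix-loop-helix proteins bind. Each run gives the 250 bases before the gene's start in RefSeq, 5′ to 3′, with E-boxes in capitals.
Vim promoter, chr2:13574061-13574310, plus strand: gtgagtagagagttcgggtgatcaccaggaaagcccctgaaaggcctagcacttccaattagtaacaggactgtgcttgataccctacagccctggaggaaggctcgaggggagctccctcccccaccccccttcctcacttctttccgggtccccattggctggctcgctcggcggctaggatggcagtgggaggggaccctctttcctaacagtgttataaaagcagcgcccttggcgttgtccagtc
Nr2e1 promoter, chr10:42583591-42583840, minus strand: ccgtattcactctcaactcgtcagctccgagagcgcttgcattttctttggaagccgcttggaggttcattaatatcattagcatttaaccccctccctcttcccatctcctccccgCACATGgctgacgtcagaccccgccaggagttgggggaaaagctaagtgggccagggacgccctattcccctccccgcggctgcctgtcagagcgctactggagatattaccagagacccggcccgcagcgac
Nes promoter, chr3:87970843-87971092, plus strand: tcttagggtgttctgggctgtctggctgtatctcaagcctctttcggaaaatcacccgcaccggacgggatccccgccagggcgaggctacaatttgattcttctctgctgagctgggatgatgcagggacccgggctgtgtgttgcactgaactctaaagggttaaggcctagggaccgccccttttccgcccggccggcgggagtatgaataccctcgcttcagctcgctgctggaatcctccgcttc
The Nr2e1 window held 1 E-box, CACATG, whose first base lies 133 bases before the start, and the Vim and Nes windows held 0. The motif reads the same on both strands and was searched with overlaps allowed. Of all 32851 promoter windows of this length, 66.2% held at least 1, against 6 of the 11 windows listed for 8 of the 9 marker genes, of which Fabp7 and 1 window of Msi2 held 2. A match is a description of letters, and windows without one say nothing about binding elsewhere in the gene.

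The main question the design asks of these genes is whether their transcripts differed between 4-OHT and vehicle cells at each time. In the fit without pairing, 0 of the 14 tested probes were called at any of the 7 times (limma, adjusted p under 0.05 over all tested probes). Over all probes the share called was 0% at 6 and 12 h, 0.0736% at 18 h and 0.248% at 24 h. Later it was 0.952% (48 h), 4.5% (96 h) and 6.61% (144 h). An unadjusted p under 0.05 was reached by 0 marker probes at 12 and 18 h, by 1 at 24 and 48 h, by 3 at 6 and 144 h, and by 4 at 96 h. Over all probes that share was 6.82% (6 h), 5.08% (12 h), 2.95% (18 h), 3.79% (24 h), 6.24% (48 h), 13.4% (96 h) and 16.7% (144 h). The F test for an effect that differs between times called 0 marker probes and 1.81% of all probes. The median difference of the 14 probes was -0.01 at 6 h and 0.03 at 12 h, and reached -0.10 at 96 h and -0.42 at 144 h, beside medians over all probes between -0.00 and 0.03 at the 7 times. At 96 h 12 of the 14 differences lay below 0, and at 144 h 11 did, against 48.3% and 49.1% of all probes. The 14 probes stand for only 7 genes and share the same arrays. By the probe with the highest mean level of each gene, 6 of 7 lay below 0 at 96 h and 5 of 7 at 144 h. In bulk samples such as these, fewer cells of a type and less of a transcript per cell cannot be told apart.

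The letters also allowed each 4-OHT array to be set against the vehicle array of the same letter and time. At 18, 24, 48 and 96 h the deviations of arrays of 1 letter were positively correlated. Yet 4-OHT arrays B at 18 and 24 h, and A and B at 48 h, correlated more with a vehicle array of another letter. With each pair as a block the same differences had smaller errors. That fit called 1 marker probe at 48 h (Vim), 2 at 96 h (Vim and Nes) and 2 at 144 h (Vim and 1 Cd44 probe), beside 3.5%, 11.7% and 16.3% of all probes. It called 0 at 6, 12, 18 and 24 h, where it called 0%, 0.023%, 0.639% and 1.5% of all probes. With the letter as a single block across all times, 1 marker probe, Vim, was called at 96 h and at 144 h, beside 5.93% and 8.33% of all probes.

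**Figure D2:**
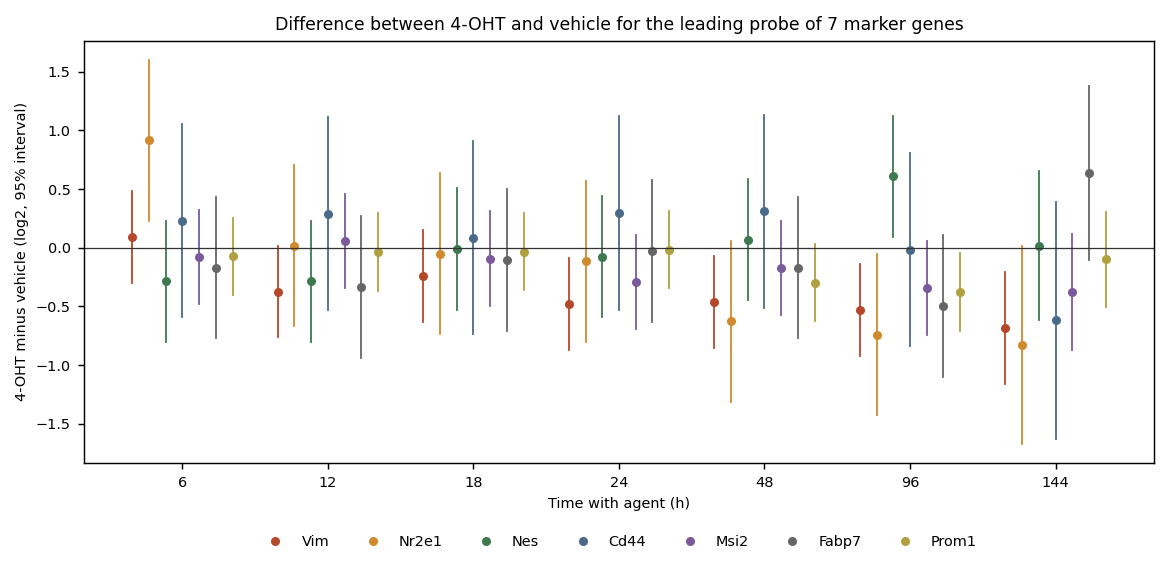
Difference between 4-OHT and vehicle (log2, vertical axis) at each time for the leading probe of the 7 tested marker genes, which is the tested probe with the highest mean level. Points are estimates of the fit without pairing and lines their 95% intervals. Vim lies below 0 from 12 h on, Nr2e1 is at -0.63, -0.74 and -0.83 at 48, 96 and 144 h, and Nes lies above 0 at 96 h.

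Vim, the vimentin gene, had a lower mean level in 4-OHT cells at each time from 12 h on (probe ILMN_2451022). At 48 h its levels were 11.93, 12.07 and 12.22 in 4-OHT cells and 12.44, 12.61 and 12.55 in vehicle cells (replicates A, B and C). All 4-OHT arrays lay below all vehicle arrays at that time, as for 7.36% of all probes, and likewise at 24 h (5.78%). At 96 h the levels were 11.81, 12.09 and 12.69 in 4-OHT cells and 12.68, 12.61 and 12.91 in vehicle cells. Here the groups overlapped, since replicate C was high with both agents, but each 4-OHT array was below the vehicle array of its letter. At 144 h the levels were 12.14 and 12.32 in 4-OHT cells and 13.01 and 12.81 in vehicle cells (A and C), again with no overlap (17.2% of all probes).

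At 6 h Vim averaged 12.85 ± 0.23 in 4-OHT cells and 12.76 ± 0.06 in vehicle cells (log2, SD, n = 3 each), a difference of 0.09 ± 0.19 (SE). The next differences were -0.37 at 12 h, -0.24 at 18 h and -0.48 at 24 h. They were -0.46 at 48 h, -0.53 at 96 h and -0.68 ± 0.24 at 144 h, a level 1.61-fold lower in 4-OHT cells. In all 17 same-letter pairs from 12 to 144 h the 4-OHT array was the lower one, by 0.04 to 0.87, a pattern that 0.929% of all tested probes showed. At 6 h the A and B pairs were above 0, at 0.10 and 0.37, so over all times 18 of 20 pairs were lower. The start at 12 h follows these same values, and the share is a description only. The F test over the 7 times called Vim (F = 4.81, limma, adjusted p = 0.0183), as it did 6.05% of all probes, and 0 of the other 13 marker probes. Without the 4-OHT array of replicate A at 144 h that test called 0 marker probes. Taken time by time without pairing, the smallest adjusted p of limma was 0.0804, at 144 h. With the pairs as a block it was 0.051 at 24 h, and the later times gave 0.0349 (48 h), 0.00435 (96 h) and 0.00224 (144 h).

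Arrays of letters A and B and arrays of letter C belong to different number series in the labels from 18 h on, and the Vim difference had the same sign in both. In the first series it was -0.69 at 96 h and -0.87 at 144 h, and in the C pair -0.22 and -0.50. The late effect of 4-OHT on Vim (mean of 96 and 144 h) less the early one (mean of 6 and 12 h) was -0.47 ± 0.20 (adjusted p = 0.206, and 0.0153 with the pairs as a block). The levels of the 14 groups ran without a gap, since no neighbours in their order had separate arrays. The highest were vehicle at 144 h and 4-OHT at 6 h, and the lowest were 4-OHT at 24 and 12 h. At 144 h the mean level of 11 oligodendrocyte lineage genes was 10.08 to 10.79 in 4-OHT cells and 7.13 to 7.60 in vehicle cells, and that of 8 astrocyte genes was 6.36 to 6.91 in 4-OHT cells and 7.53 to 7.76 in vehicle cells. Their part in the Vim and Nr2e1 differences was not tested. A further Vim probe, ILMN_1232980, was detected on 1 array only and not tested.

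**Figure D3:**
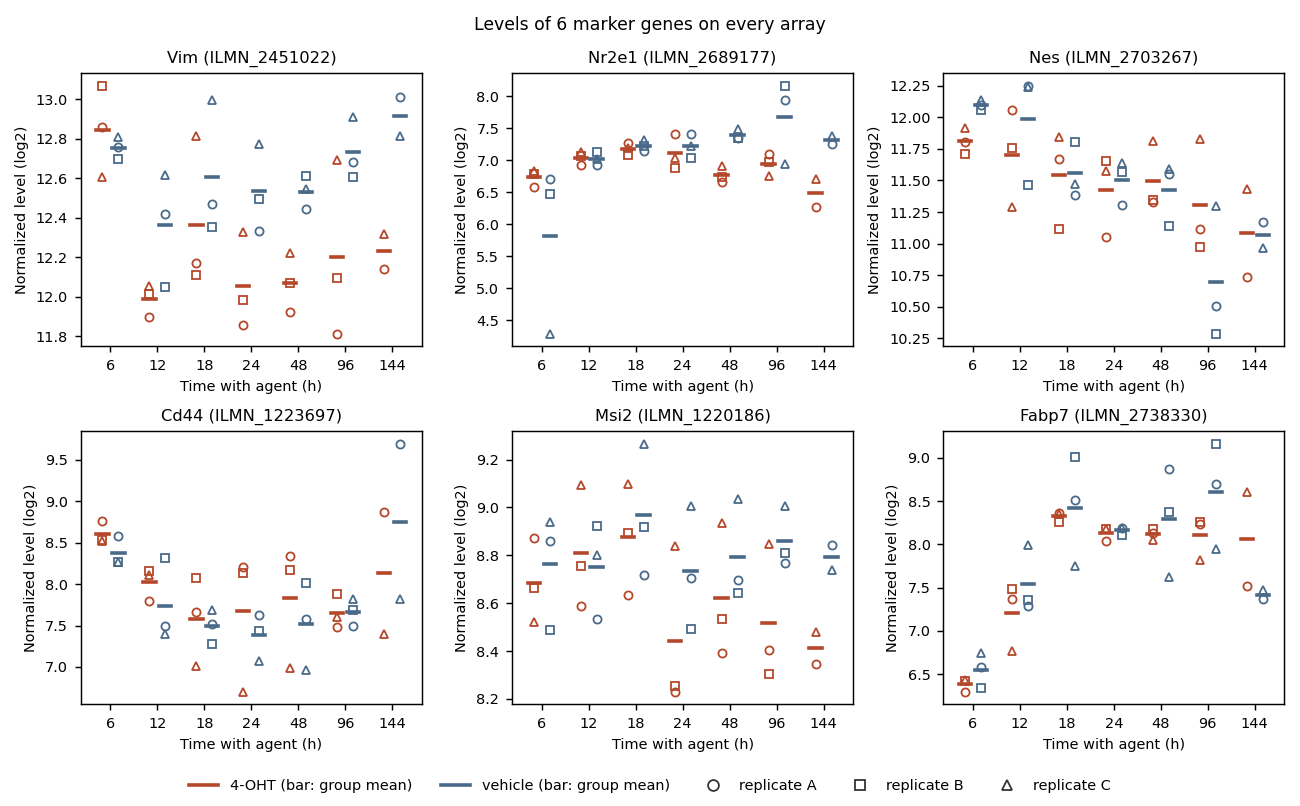
Normalized log2 level (vertical axis) on every array by time with agent (horizontal axis) for the leading probes of Vim, Nr2e1, Nes, Cd44, Msi2 and Fabp7. 4-OHT is red and left of vehicle in blue, bars are group means and symbols give the replicate letter. All Vim 4-OHT arrays lie below all vehicle arrays at 24, 48 and 144 h, and the lowest Nr2e1 value, 4.29, belongs to the dim vehicle array at 6 h.

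Nr2e1, which encodes Tlx, had lower levels in 4-OHT cells from 48 h on (probe ILMN_2689177). At 48 h the levels were 6.66, 6.73 and 6.91 in 4-OHT cells and 7.35, 7.35 and 7.48 in vehicle cells, with no overlap (7.36% of all probes). At 96 h they were 7.09, 6.98 and 6.75 in 4-OHT cells and 7.94, 8.16 and 6.93 in vehicle cells. There the vehicle array of replicate C lay below the other vehicle arrays and below 2 of the 4-OHT arrays. At 144 h the levels were 6.26 and 6.71 in 4-OHT cells and 7.26 and 7.38 in vehicle cells, with no overlap (17.2% of all probes).

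The Nr2e1 differences were -0.63 ± 0.34 at 48 h, -0.74 ± 0.34 at 96 h and -0.83 ± 0.41 at 144 h (SE), which is 1.54-, 1.67- and 1.78-fold lower. None was called, with adjusted p of 0.917, 0.307 and 0.308 (limma), and 0.373, 0.116 and 0.129 with the pairs as a block. In 8 of 8 same-letter pairs from 48 to 144 h the 4-OHT array was the lower one, as it was for 7.01% of all probes. Over all times it was the lower one in 14 of 20 pairs. The dim array widened the spread of this probe. With that array left out and the others normalized again, limma called Nr2e1 at 96 h (-0.74, adjusted p = 0.0278) and at 144 h (-0.83, adjusted p = 0.0389). Over all probes that fit called 1031 and 1541. Pairs were not used in it. With the letter as a block on 18 to 96 h alone, Nr2e1 was also called at 96 h (-0.74, adjusted p = 0.0347), beside 1960 of the 21740 tested probes. In the A and B arrays alone the differences were -0.65, -1.02 and -0.996 at these 3 times, and in the C pair -0.57, -0.18 and -0.66.

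At 12, 18 and 24 h the Nr2e1 differences were 0.02, -0.05 and -0.11. At 6 h the difference was 0.91 ± 0.34, with levels of 6.58, 6.79 and 6.83 in 4-OHT cells and 6.70, 6.47 and 4.29 in vehicle cells. The last value is from the dim array, and the pairs A and B differed by less than the C pair, by -0.12 and 0.32 against 2.54. The test of late less early effects called Nr2e1, at -1.25 ± 0.36 (limma, adjusted p = 0.0276). It was the only call among the 14 probes in that test, which called 6.45% of all probes, 3.12% lower. Without the dim array the value was -0.87 ± 0.22 and still called (adjusted p = 0.0149). The call was lost with 12 h alone as the early time (-0.80, adjusted p = 0.46), and without the vehicle array of A or B at 96 h, the 4-OHT A array at 144 h or the vehicle C array at 144 h (adjusted p from 0.053 to 0.0848). With the pairs as a block the adjusted p was 0.00655, and 4 marker probes were called, the others being Vim, Nes ILMN_2703267 and Msi2 ILMN_2684651, beside 16.2% of all probes.

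**Figure D4:**
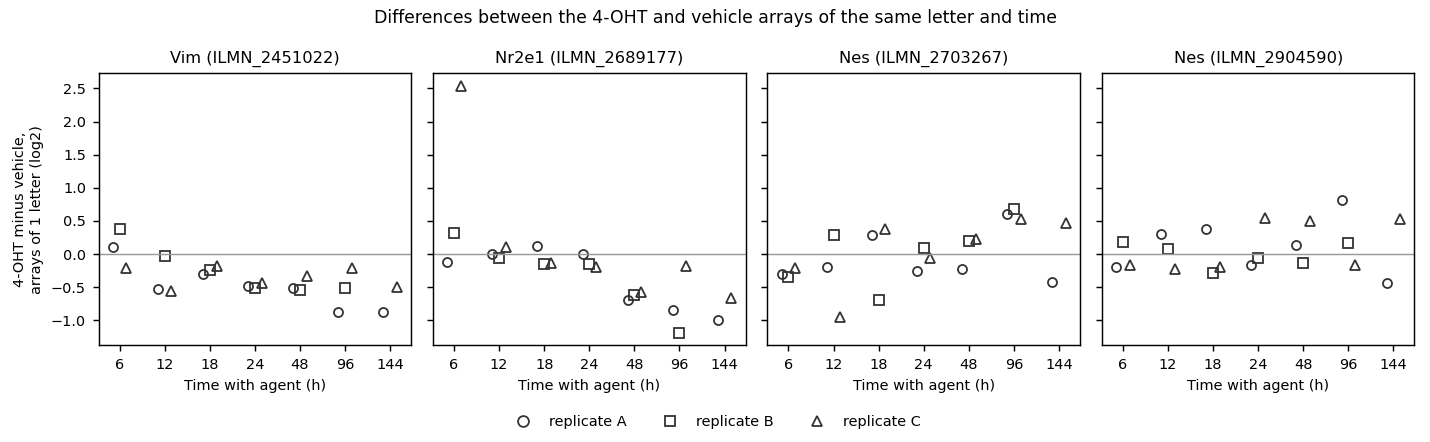
Difference between the 4-OHT and the vehicle array of the same letter and time (log2, vertical axis) against time for Vim, Nr2e1 and both Nes probes, with 1 symbol per pair. The 17 Vim pairs from 12 h on and the 8 Nr2e1 pairs from 48 h on lie below 0, the Nes pairs lie on both sides, and the Nr2e1 point at 2.54 contains the dim array.

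Nes, which encodes nestin, the filament protein that partners vimentin, did not follow Vim. At 96 h the leading probe ILMN_2703267 had levels of 11.12, 10.97 and 11.83 in 4-OHT cells and 10.51, 10.29 and 11.30 in vehicle cells. The groups overlapped, since replicate C was high with both agents, but every 4-OHT array was above the vehicle array of its letter, by 0.61, 0.68 and 0.53. The difference was 0.61 ± 0.25 (SE), 1.52-fold higher, with an adjusted p of 0.233 (limma) and of 0.0411 with the pairs as a block. The other Nes probe, ILMN_2904590, had a smaller difference at 96 h, 0.27 ± 0.30, with an adjusted p of 0.497 in the paired fit. At 144 h the leading probe's levels were 10.74 and 11.43 in 4-OHT cells and 11.17 and 10.97 in vehicle cells, and the pairs went opposite ways, -0.43 for A and 0.47 for C.

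The vehicle cells themselves carried less Nes transcript at 96 h than at 18 h. In the order of the 14 groups, vehicle at 6 h was highest (12.10 ± 0.04, SD, n = 3) and vehicle at 96 h lowest (10.70 ± 0.53, n = 3). In vehicle cells the levels at 96 h, 10.51, 10.29 and 11.30, all lay below those at 18 h, which were 11.39, 11.81 and 11.47, with a difference of -0.86 ± 0.25 (limma, adjusted p = 0.038). This was 1 of the 14 marker probes, beside 6.09% of all probes called in that comparison, 2.36% lower. Over all times from 18 to 144 h the F test in vehicle cells called 0 marker probes and 14% of all probes. The same change in 4-OHT cells was -0.24 ± 0.25 (adjusted p = 0.6), where 0 of 14 marker probes and 10.3% of all probes were called. The difference between the changes, 0.62 ± 0.36, was not called (adjusted p = 0.997), and 0.248% of all probes were. The call in vehicle cells was lost without any 1 of the A or B arrays at 18 or 96 h, at adjusted p from 0.0772 to 0.232. The other Nes probe had -0.76 ± 0.30 in vehicle cells (adjusted p = 0.129) and -0.46 ± 0.30 in 4-OHT cells. Over the 14 group means the Nes probes correlated at r = 0.89, as a description of values that share arrays.

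Cd44, the hyaluronan receptor at chr2:102811141-102901669, had 3 tested probes. The probe with the widest difference at 144 h, ILMN_3114585, had levels of 6.65 and 6.18 in 4-OHT cells and 8.04 and 6.69 in vehicle cells (A and C), with no overlap (17.2% of all probes). Its difference was -0.95 ± 0.44 (SE), 1.93-fold lower, with an adjusted p of 0.255 (limma) and of 0.0112 with the pairs as a block. The leading probe ILMN_1223697 differed by -0.62 ± 0.50 and ILMN_2474229 by -0.57 ± 0.34 at 144 h, and neither was called in either fit. The A pair carried most of these differences, at -1.39, -0.82 and -1.01 for the 3 probes, against -0.51, -0.41 and -0.12 in the C pair. Leaving out 1 array of 144 h left 1 array in its group, so only the differences are given. Without vehicle array C of 144 h they were -1.62 for ILMN_3114585, -1.31 for ILMN_2474229 and -1.55 for ILMN_1223697. Without vehicle array A of 144 h ILMN_3114585 had -0.27, and the direction turned for the others, at 0.32 for ILMN_1223697 and 0.17 for ILMN_2474229. Without 4-OHT array C of 144 h ILMN_1223697 also turned, at 0.12.

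At 48 h the 3 Cd44 differences were above 0, between 0.31 and 0.42, and none was called. The leading probe had levels of 8.34, 8.16 and 6.99 in 4-OHT cells and 7.58, 8.02 and 6.97 in vehicle cells there, so the spread between letters exceeded the difference between agents. At 96 h all 3 differences were between -0.11 and -0.02. The probes correlated at r = 0.61 to 0.80 over the 14 group means. Of the 6 probes that did not pass the filter, ILMN_2730266 was detected on 2 vehicle arrays and ILMN_2754990 on 1, and the other 4 on none.

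Msi2, a Musashi RNA-binding protein gene at chr11:88339382-88718306, had 5 tested probes. The leading probe ILMN_1220186 had levels of 8.40, 8.30 and 8.85 in 4-OHT cells and 8.77, 8.81 and 9.0045 in vehicle cells at 96 h. Each 4-OHT array was below that of its letter, as it was in 14 of 14 pairs from 18 to 144 h (2.26% of all probes), although the groups overlapped at 96 h. Over all times it was below in 16 of 20 pairs. The differences included -0.34 ± 0.20 at 96 h and -0.38 ± 0.24 at 144 h, and none was called (paired fit, adjusted p = 0.0811 at 96 h and 0.101 at 144 h). At 144 h all 5 Msi2 differences were below 0, between -0.06 and -0.55, and 0 were called. At 6 h ILMN_2684651 had a difference of 1.07 ± 0.38 that was not called (adjusted p = 0.699). Its pairs differed by 0.40 (A), 1.32 (B) and 1.48 (C), of which only C contains the dim vehicle array. The paired fit did not call it either (adjusted p = 0.111). The difference ran from 0.39 to 1.56 over the alternatives, and was called without vehicle array A of 6 h (1.56, adjusted p = 0.0441), beside 196 of all probes. In 4-OHT cells at 96 h against 18 h, 0 Msi2 probes were called without pairing. With the letter as a block on 18 to 96 h alone 3 were called lower, ILMN_1220186 at -0.36 (adjusted p = 0.0352), ILMN_2684651 at -0.64 (0.0203) and ILMN_2687905 at -0.50 (0.037). These were 3 of the 14 marker probes, a share close to that of all tested probes (4698 of 21740). The Msi2 probes did not vary together: their correlations over the 14 group means ran from -0.49 to 0.51. In the platform annotation ILMN_1214668 and ILMN_1234842 each have a transcript record of their own, and the other 3 tested probes share 1.

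Fabp7, at chr10:57784923-57788450, varied more with time than with agent (probe ILMN_2738330). It averaged 6.39 ± 0.08 in 4-OHT cells and 6.55 ± 0.20 in vehicle cells at 6 h, and 8.32 ± 0.05 in 4-OHT cells and 8.43 ± 0.63 in vehicle cells at 18 h (SD, n = 3 each). All arrays of 6 and 12 h form a number series of their own in the labels, so time and series cannot be told apart in that step. At 96 h the levels were 8.24, 8.26 and 7.82 in 4-OHT cells and 8.69, 9.16 and 7.95 in vehicle cells, lower in 3 of 3 pairs, with a difference of -0.50 ± 0.30 that was not called. At 144 h the levels were 7.52 and 8.60 in 4-OHT cells and 7.37 and 7.47 in vehicle cells, a difference of 0.64 ± 0.36 in the opposite direction, also not called, with no overlap (17.4% of all probes).

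Prom1 (ILMN_1249786), at chr5:43993621-44102047, was not well above background (detection p of 0.05 or more) on any array of the 4 groups at 6 and 12 h. At 48 h its levels were 4.49, 4.62 and 4.599 in 4-OHT cells and 4.78, 4.86 and 4.95 in vehicle cells, with no overlap (7.36% of all probes), and 0 of 3 4-OHT arrays but 3 of 3 vehicle arrays had a detection p under 0.01. The differences were -0.30 ± 0.16 at 48 h, -0.38 ± 0.16 at 96 h and -0.10 ± 0.20 at 144 h, and none was called. The A and C pairs at 144 h went opposite ways, at -0.59 and 0.39.

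The genes whose pattern over the 14 group means was most like a marker's are given as a description, with no test. For Vim these were Rcan2 (r = 0.931) and Pcp4l1 (0.904), for Nr2e1 Alpl (0.9) and Aagab (0.897), for Nes Drosha (0.959) and Gid8 (0.957), and for Cd44 Csrp1 (0.946) and Ahnak (0.944). For Fabp7 they were Syne2 (0.948) and Hnrnpa2b1 (0.946), for Msi2 Slc35c2 (0.905) and Sgk3 (0.893), and for Prom1 Trps1 (0.907) and Masp1 (0.896). Between the markers themselves the highest r over the group means was 0.72 (Fabp7 with Prom1), the lowest was -0.788 (Cd44 with Fabp7), and Nes with Vim gave -0.0609.

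Other genes used to recognise neural stem cells and radial glia did change. Of 25 listed, 20 were tested. At 96 h 2 rose and 3 fell, and at 144 h the counts were again 2 and 3. Of all probes 2.41% rose and 2.1% fell at 96 h, and 3.41% rose and 3.2% fell at 144 h. Sox9, a transcription factor of glial progenitors, rose by 0.86 ± 0.17 at 96 h (limma, adjusted p = 0.00134). Tnc, the matrix protein tenascin C, rose by 0.76 ± 0.19 (adjusted p = 0.0114). Hopx, a homeodomain protein of outer radial glia in primates, had a difference of -2.04 ± 0.34 (adjusted p = 0.000136). Slc1a3, the glial glutamate transporter GLAST, had -1.21 ± 0.22, and Egfr, the receptor of the EGF in the medium, -1.07 ± 0.23. Hopx and Slc1a3 were already called at 48 h, at -1.85 and -0.96, when 0.304% of all probes fell, and 0 of the 20 were called before that. The median of the 20 genes was -0.13 at 96 h, beside 0.01 for all probes.

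**Figure D5:**
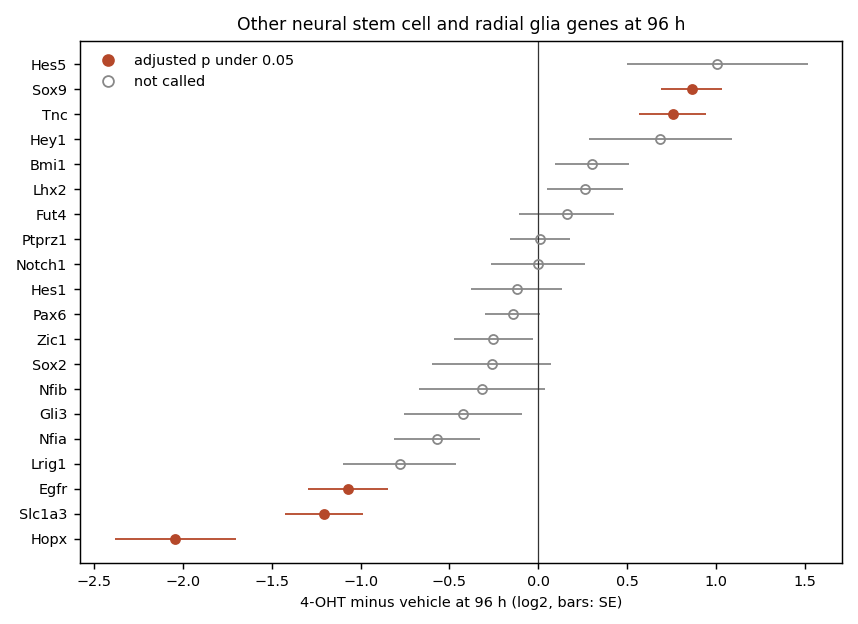
Difference between 4-OHT and vehicle at 96 h (log2, horizontal axis, bars are SE) for the 20 tested genes of the neural stem cell and radial glia list, none of which is among the 9 markers. Filled red points passed limma's adjusted p under 0.05: Sox9 and Tnc to the right of 0, and Egfr, Slc1a3 and Hopx to the left.

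Of the genes of the pathways around the markers, those called are given by name. Over all probes 0.952% were called at 48 h, 4.5% at 96 h and 6.61% at 144 h. Of 7 other tested intermediate filament genes, 0 were called up to 96 h, and at 144 h Gfap, the astrocyte filament gene, had -2.56 ± 0.65 (limma, adjusted p = 0.0112) and Lmnb1, a nuclear lamin gene, rose by 0.91 ± 0.24. Of 7 tested partners and targets of Tlx, Wnt7a, a growth factor gene that Tlx activates in mouse neural stem cells, was called at 48 h (-1.03 ± 0.26, adjusted p = 0.0428) and at 96 h (-1.03, adjusted p = 0.0132), and 0 were called at other times. Of 7 tested ligands and partners of Cd44, Mmp9, a protease that docks on it, rose by 1.52 ± 0.46 at 96 h and by 2.41 ± 0.56 at 144 h, and 0 others were called. Of the genes around Hmga2 and let-7 (6 tested), the other fatty acid binding proteins (2 tested) and the targets and partners of Musashi (4 tested), 0 were called at any time.

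Markers of other neural cell types were called at 96 and 144 h, when the Vim and Nr2e1 differences were below 0. At 12 and 18 h, when the Vim mean was already lower, 0 of them were called, beside 0% and 0.0736% of all probes. At 24 h 2 oligodendrocyte lineage genes rose and at 48 h 3 did, beside 0.248% and 0.952% of all probes called. Of 11 tested oligodendrocyte lineage genes, 8 rose and 0 fell at 96 h and again at 144 h, and the mean level of the list was 8.56 to 10.24 in 4-OHT cells and 6.87 to 7.86 in vehicle cells at 96 h. Enpp6, an enzyme of newly forming oligodendrocytes, rose by 3.52 ± 0.42 at 96 h and Pdgfra, the receptor of their precursors, by 1.70 ± 0.32. Of 8 tested astrocyte genes, 1 rose and 2 fell at 96 h, and 1 rose and 3 fell at 144 h. Of 7 tested neuronal genes, 0 were called at 96 h, and 3 rose at 144 h, Dcx among them (1.98 ± 0.48). Over all probes 2.41% rose and 2.1% fell at 96 h, and 3.41% rose and 3.2% fell at 144 h. The mean level of the neuronal list was 8.41 to 8.99 in 4-OHT cells and 7.67 to 8.16 in vehicle cells at 144 h. The part of neurons in the marker differences was not tested either.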

How the data were processed

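Transcripts were measured on Illumina MouseWG-6 arrays in 40 samples. The deposited table holds a linear bead intensity and a detection p-value per probe and array. Per the submitters' processing notes GenomeStudio and lumi were used, and the authors' second deposited table holds log2 values after quantile normalization, per the labels' design text; whether they corrected background is not given there. Tool versions are not given in the sources used here. Of 45281 probes, 21 rows were out of step with the header and left out. Gene symbols came from the platform annotation (34872 probes with 1 symbol, 18 with several, 10370 with none).

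Intensities were background-corrected and normalized with neqc of limma 3.58.1 (R 4.3.3, offset 16, quantile normalization, log2). Probes with a detection p under 0.01 on at least 3 arrays were tested. The linear model had a mean for each of the 14 groups (26 residual degrees of freedom) and used empirical Bayes variances with an intensity trend, two-sided tests and Benjamini-Hochberg adjustment over all 21740 tested probes. The procedure was tested on simulated data. The leading probe of a gene is the tested probe with the highest mean level. Genes most like a marker are the 2 other genes with the highest r over group means. Promoter windows of 8 markers, without bases after the start, came from RefSeq (GRCm38.p6).

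Replicate letters were checked as pairs: residuals of 4-OHT and vehicle arrays of 1 letter correlated at 0.367 to 0.783 at 18 to 96 h, and at 0.671 at 144 h. At 6 h they correlated at -0.0445 to 0.116 and at 12 h at -0.143 to 0.421. A vehicle array of another letter correlated more for B and C at 6 h, C at 12 h, B at 18 and 24 h, and A and B at 48 h. The letter C is also a number series of its own from 18 h on, so pairing and series cannot be told apart. Within-group correlations ran from 0.950 to 0.997, and no 2 arrays of the same group held the same values. Alternatives were the authors' values, other scaling, background and filter choices, blocks, array weights and leaving out each array.

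The members, the lists and the test of pairs within each time were chosen with earlier results of these data known.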

Additional observations from a re-analysis of the deposited data

Results flagged for a closer look

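The Nr2e1 effect of 4-OHT was lower at late than at early times in the comparison given next. The F test for an effect that differs between times did not call Nr2e1 (limma, adjusted p = 0.372). The mean difference between 4-OHT and vehicle over the late times, 96 and 144 h, less that over the early times, 6 and 12 h, was -1.25 ± 0.36 on the log2 scale (probe ILMN_2689177, limma, adjusted p = 0.0276), and 6.45% of all probes were called in that test. The late differences were -0.74 and -0.83, and the early ones 0.91 at 6 h and 0.02 at 12 h. The value at 6 h contains the dim vehicle array of replicate C, on which Nr2e1 had its lowest level, 4.29, and the probe was not detected. Without that array the value was -0.87 ± 0.22 (adjusted p = 0.0149). Against 12 h alone the difference was -0.80 (adjusted p = 0.46). Over the alternatives tried the value ran from -1.47 to -0.80, below 0 in 35 of 35. Without 1 of the vehicle arrays of replicates A and B at 96 h, of the 4-OHT array of replicate A at 144 h or of the replicate C vehicle array at 144 h, it was not called, at adjusted p from 0.053 to 0.0848.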

How the results depend on the processing

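Counts of called marker probes depended on how the spread between arrays was modelled. No difference called in the fit without pairing changed sign. At 144 h, Cd44 ILMN_1223697 (-1.55 to 0.32), Cd44 ILMN_2474229 (-1.31 to 0.17) and Prom1 (-0.59 to 0.21), called in the arrays A alone, turned sign when an array was left out. At 96 h, where the fit without pairing called 0, the replicate block by letter over all times called 1 (Vim), the number series as a fixed or a random block 1 (Vim), the replicate block on 18 to 96 h alone 2, the replicate block within each time 2, the fit without the dim array 1 (Nr2e1), the arrays A and B alone 7 and array weights (gene-by-gene method) 6. At 144 h (0) these gave 1, 1, 1 for the letter and series blocks, 2 for the block within each time and 1 without the dim array. Over all probes the block on 18 to 96 h alone called 1960 at 96 h. The letter, fixed series and random series blocks called 1289, 1550 and 1410 at 96 h and 1811, 2220 and 2012 at 144 h. The block within each time called 2540 and 3550, and the fit without the dim array 1031 and 1541. The arrays A alone hold 1 array a group at 144 h, assumed to vary like the other groups, so no count is given for them. At 48 h (0) the block within each time called 1, array weights 8 and the arrays A and B alone 6, and at 24 h (0) array weights 1 and the arrays A and B alone 2. For the late minus early effect (1), median scaling called 2, the block within each time 4, and 12 h as the only early time 0. Over all probes these called 1051, 3532 and 646. For the F test at any time (1), median scaling called 2, array weights 8 and the fit without the dim array 2. Over all probes median scaling called 973 there and the fit without the dim array 1328. For the F test between times (0) array weights called 1. For vehicle at 96 h minus 18 h (1), median scaling called 0, no filter 0, the arrays A and B alone 5 and array weights 5. For 4-OHT at 96 h minus 18 h (0), the arrays A and B alone called 4, array weights 5 and the replicate block on 18 to 96 h alone 3 (all Msi2), and for the difference between these (0) 2 in the arrays A and B alone and 1 with array weights. For the vehicle F test from 18 to 144 h (0), median scaling called 1, the letter block 2, either series block 3 and array weights 8. Array weights also raised the calls over all probes at 96 h to 5101, beside 979, and the block within each time to 2540, but lowered them at 144 h to 366, beside 1438. Of the 21740 tested probes the arrays A and B alone called 1176 at 24 h, 1810 at 48 h and 4418 at 96 h. In the changes from 18 to 96 h they called 9650 in vehicle cells, 10768 in 4-OHT cells and 2375 for the difference. Array weights called 9675, 10134 and 1717 there, and 1541 at 24 h and 2781 at 48 h. In the F tests array weights called 6042 at any time, 2807 between times and 10987 in vehicle cells. With each time fitted alone 0 marker probes were called, and over all probes 502 at 96 h and 0 at 144 h. Leaving out 1 array moved the calls over all probes for vehicle at 96 h minus 18 h (1323) to 273 without vehicle array A and 2574 without vehicle array C of 96 h. For 4-OHT (2235) they moved to 477 without 4-OHT array A of 96 h and 3422 without 4-OHT array C of 18 h, and for the difference between these (54) to 10 without 4-OHT array B and 186 without 4-OHT array C of 96 h. At 96 h the calls were 571 without 4-OHT array B. At 24 h (54) they were 28 without vehicle array A or B, at 18 h (16) 6 without 4-OHT array B, at 12 h (0) 71 without vehicle array B and at 6 h (0) 196 without vehicle array A. Leaving out 1 array in turn gave 0 to 2 marker probes for vehicle at 96 h minus 18 h, 0 to 1 for the late minus early effect, 0 to 2 for the F test at any time, 0 to 1 for 4-OHT at 96 h minus 18 h, 0 to 2 for the vehicle F test, 0 to 1 at 96 h, 0 to 3 at 144 h (3 without the vehicle array of replicate C) and 0 to 2 at 6 h (2 without the vehicle array of replicate A). The block within each time, the block on 18 to 96 h alone and 12 h as the only early time were chosen after seeing the data. The cause was not tested. Over all alternatives the Vim difference stayed below 0 in 21 of 21 at 96 h (-0.78 to -0.34) and in 18 of 18 at 144 h (-0.87 to -0.58). Probes near background, such as Prom1 and ILMN_1234842 of Msi2, and all probes of Hmga2 and Msi1, are limited by signal over background.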
